A study of Homo sapiens with 18 samples.

Results

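Paired differences in expression between SH-SY5Y cells exposed to 5 μM cocaine and unexposed cells (0 μM), both harvested 6 h after exposure, were read from Affymetrix U133 Plus 2.0 arrays, 3 per dose, and arrays sharing a replicate number were taken as a pair. Of the 54675 probe sets on the array, each a group of short probes for 1 gene or for related transcripts, 24930 were kept because their mean log2 signal over the 9 arrays of 6 h was above log2(40), or 5.32. The kept probe sets with exactly 1 gene symbol, 21434 in number, covered 11943 of the 19775 genes with such a probe set on the array, while 1021 had several symbols and 2475 had none in the annotation used here. The cells, SH-SY5Y, are an established human line from a neuroblastoma, and in every group they had been cultured with 10 μM retinoic acid for 7 days and then without it for 24 h. Exposure lasted 30 min, untreated dishes had the same changes of medium, and the RNA of 3 dishes was pooled for each replicate, so a replicate is a pool of dishes of 1 line. The 3 arrays of cells given 1 μM cocaine at 6 h entered the fit for its estimate of the spread, and 9 arrays harvested at 24 h were used for a comparison of times. The labels of the 5 μM arrays also describe them as controls without treatment, so their group rests on the dose that the titles give.

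Cocaine blocks the transporters that return dopamine, noradrenaline and serotonin to the cell, and in neurons it is known for engaging cAMP and ERK signalling, for a wave of immediate early genes and for later changes in genes of chromatin, RNA processing and the cytoskeleton. Retinoic acid, which was used to differentiate these cells, acts through nuclear receptors that bind direct repeats near their target genes. Several of those targets, such as the CYP26 enzymes and DHRS3, lower the level of retinoids in turn. Because many genes are read by several probe sets that differ in position and in the transcripts they bind, a gene may be measured several times on 1 array.

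The median log2 signal per array lay between 4.96 and 5.01 at 6 h, and 3 pairs limit the precision. Several adrenergic neuroblastoma genes were bright, with GATA3 at a mean of 12.96, ISL1 at 12.40 and PHOX2A at 11.29, while HAND2 was at 7.56. Several mesenchymal markers were as bright, with ITGB1 at 12.96, VIM at 12.24 and TWIST1 at 12.23. The adrenergic factor INSM1, the mesenchymal factor PRRX1 and the glial marker S100B were below the signal filter. TH, the enzyme that marks dopaminergic cells, was not among the kept genes either. The summed signal of the 22 adrenergic genes lay between 15.45 and 15.51 on the log2 scale without cocaine and between 15.44 and 15.47 at 5 μM, and that of 42 mesenchymal genes between 15.04 and 15.37 and between 15.19 and 15.34. For the 7 Schwann and glial genes it lay between 7.75 and 7.80 and between 7.83 and 7.84, with SOX10 and ERBB3 above the filter and the other 5 below it. Of the adrenergic genes 21 were above the filter and of the mesenchymal genes 31. Among technical measures, the log2 difference between the 3′ and 5′ probe sets of ACTB was 0.548, 1.12 and 0.894 on the untreated arrays 1, 2 and 3 and 0.493, 0.518 and 0.539 at 5 μM. The groups did not overlap (difference -0.336), and the exact permutation test gave a 2-sided p of 0.1, below which this number of arrays cannot go. The spiked bacterial control bioD, relative to the control cre, was -1.08 on average without cocaine and -1.56 at 5 μM (difference -0.478), also without overlap and with an exact permutation p of 0.1. On the 1 μM arrays it was -1.57, -1.61 and -1.53, so the untreated arrays stood apart from both doses. The control bioB relative to cre differed by 0.146 between 5 and 0 μM without overlap (exact permutation p = 0.1). Its 1 μM arrays overlapped the untreated ones. The groups overlapped for bioC (difference 0.053) and for the GAPDH 3′ to 5′ measure (-0.022). The part of these measures in the paired changes was not tested.

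With the replicate number as a block in limma, 4336 probe sets (17.4% of those kept) passed a Benjamini-Hochberg adjusted p under 0.10, the threshold for a call throughout. Of these, 1859 (7.46%) were higher at 5 μM and 2477 (9.94%) were lower, for 3181 genes. The same fit without the block called 659 probe sets (2.64%), all of them among the 4336, so that 3677 calls, 1497 higher and 2180 lower, were made with the pairing alone. The median standard error was 0.0614 on the log2 scale with the block and 0.0851 without it. Most changes were small. The median size was 0.27 on the log2 scale over all calls, 0.32 for those higher and 0.23 for those lower, 93.7% were under 1.5-fold and 49% under 1.2-fold. A change of at least 2-fold was reached by 28 called probe sets, 17 higher and 11 lower. The arrays of the 2 doses did not overlap for 2937 of the called probe sets, against 5221 (20.9%) of all those kept. No unit of replication beyond the pools is stated. With the block, p-values measure the spread left between pools after the signal shared by a replicate number is taken out. The 1 μM arrays enter that spread. Without the block, p-values measure the spread between the pools of a dose. With the block on only the 6 arrays of 0 and 5 μM, 805 probe sets were higher and 586 lower. In bulk RNA, fewer cells of a kind and less RNA per cell cannot be told apart.

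The pairs were not alike. The SD of the paired changes over all kept probe sets was 0.186 in pair 1, 0.247 in pair 2 and 0.251 in pair 3. Across the 24930 probe sets, which are not independent and share the arrays of a pair, Pearson's r between pairs 2 and 3 was 0.734, whereas it was 0.351 between pairs 1 and 2 and 0.33 between pairs 1 and 3. Over the called probe sets the change in pair 1 had a median of 0.762 of the mean of pairs 2 and 3. In 3084 of them (71.1%) it was at least 0.5 of that mean, and in 477 (11%) it was under 0.25 of it. All pairs had a size of at least 0.2 in 1 direction for 1344 calls. When pair 1 was left out and the other pairs were tested, 6737 probe sets were called, and 72% of them had the same sign in pair 1, against 62.4% of all kept probe sets. The share was 80% for calls lower in pairs 2 and 3 and 64.3% for calls higher. In pair 1, 39.7% of all kept probe sets were above 0, so these shares have unlike baselines. Without pair 2 no probe set was called, with 3667 at an unadjusted p under 0.05, and without pair 3 only 9 were, all higher and all higher in pair 3 as well. Among the 1000 probe sets with the smallest p, 93.6% had the same sign in the left-out pair 2 (72.3% over all kept) and 96.1% in the left-out pair 3 (70.7% over all kept).

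**Figure D1:**
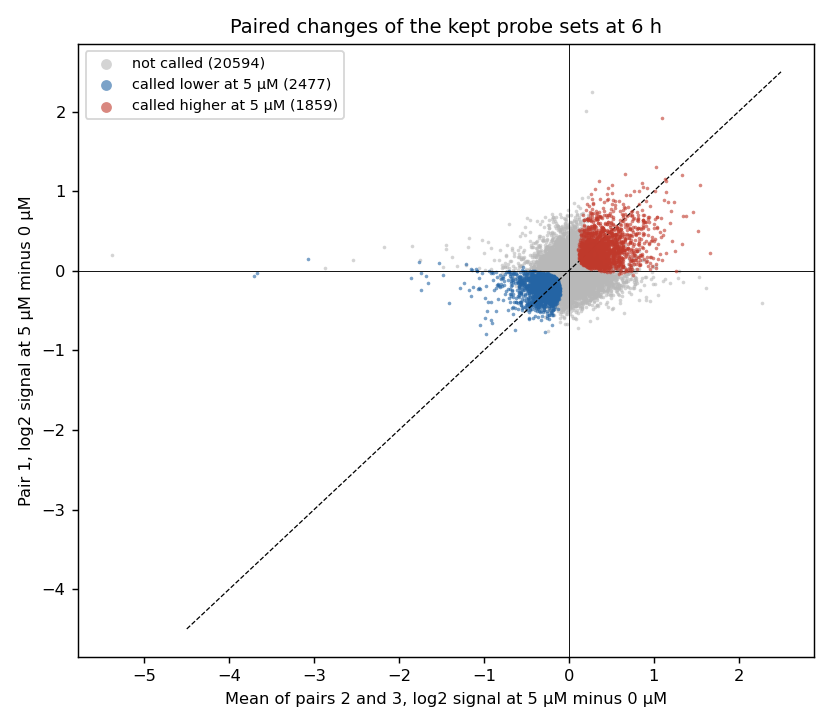
Each point is 1 kept probe set, with the mean of its paired changes in pairs 2 and 3 on the horizontal axis and its change in pair 1 on the vertical axis, both as log2 signal at 5 μM minus 0 μM, and the dashed line marks equal changes. The 1859 probe sets called higher and the 2477 called lower lie above and below 0, and a tail of lower calls lies at large changes in pairs 2 and 3 and near 0 in pair 1.

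The largest of the lower calls belonged to that tail, and they were led by genes of retinoic acid metabolism. CYP26B1, an enzyme that breaks down retinoic acid, had a log2 signal in untreated arrays 1, 2 and 3 of 8.48, 12.33 and 12.18, and in the 5 μM arrays of 8.41, 8.49 and 8.60 (log2 change -2.49, standard error 0.731, adjusted p = 0.0795 from limma). DHRS3, which reduces retinaldehyde, was at 6.81, 10.78 and 10.66 without cocaine and at 6.78, 6.90 and 7.19 with it (change -2.46, adjusted p = 0.084). RARB, a retinoic acid receptor that is itself induced by retinoic acid, was at 8.41, 9.83 and 9.89 and at 8.32, 7.96 and 8.05 (change -1.27, adjusted p = 0.0688). In all 3 genes the untreated arrays 2 and 3 stood above the other arrays, and untreated array 1 was close to the 5 μM arrays, so the doses overlapped for CYP26B1 and DHRS3 and not for RARB. The second probe set of RARB was called lower as well, at -1.01. CYP26A1, a relative of CYP26B1, had the widest spread of untreated signals, 5.01, 10.69 and 10.99, against 5.20, 5.39 and 5.53 at 5 μM, and its change of -3.52 (standard error 1.15) had an adjusted p of 0.1002 and was not called.

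The same split was present in the other genes with the largest lower calls that only the pairing gave. ELFN1, a synaptic adhesion protein, changed by -0.24, -1.72 and -1.77 in pairs 1, 2 and 3, and PRKCH, a protein kinase C, by -0.15, -1.81 and -1.51. CLMN, an actin-binding membrane protein, changed by -0.03, -1.75 and -1.72 at the dimmest of its 4 probe sets. PTPRH, a receptor tyrosine phosphatase, changed by -0.40, -1.51 and -1.33, and OSBPL10, a lipid-binding protein, by -0.22, -1.39 and -1.17. Their mean changes lay between -0.93 and -1.24, with adjusted p between 0.0429 and 0.0763 from limma. In each of these genes, chosen for 1 direction in all pairs, the change in pair 1 was the smallest. Of 21 measured genes on a list of retinoic acid response genes, 6 were lower and none was higher with each gene read at its brightest probe set, where 11.9% of all 11943 genes were called lower and 3.74% higher. The list's median change was -0.27, against -0.03 over all genes, and by pair it was -0.03, -0.35 and -0.44. Besides those above, the lower members were ALDH1A2, an enzyme that makes retinoic acid, at -0.50, the zinc finger gene TSHZ1 at -0.21 and CRABP2, a retinoic acid carrier, at -0.27. ALDH1A2 was lower in each pair, with changes of -0.39, -0.63 and -0.49, although its doses overlapped because the signal differed between replicate numbers. The ACTB measure given above was also highest on untreated arrays 2 and 3, and its part in the retinoic acid genes was not tested. Without replicate 1 the list had 13 genes lower, and without the block none.

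Promoters of RARB and CYP26A1 are shown because both genes hold the repeat bound by retinoic acid receptors within 250 bases before and 50 after their RefSeq start. The search was for GGTCA or GTTCA followed, after 6 bases of any kind, by GGTCA or GTTCA, on both strands, which takes in direct repeats spaced by 5. The sequences are from RefSeq for GRCh38.p14 and are written 5′ to 3′ in the direction of the gene, with the matched repeat in capitals. The RARB window is chr3:25428013-25428312 on the plus strand, with the repeat on the same strand, and that of CYP26A1 is chr10:93073643-93073942 on the plus strand, with the repeat on the opposite strand.
RARB: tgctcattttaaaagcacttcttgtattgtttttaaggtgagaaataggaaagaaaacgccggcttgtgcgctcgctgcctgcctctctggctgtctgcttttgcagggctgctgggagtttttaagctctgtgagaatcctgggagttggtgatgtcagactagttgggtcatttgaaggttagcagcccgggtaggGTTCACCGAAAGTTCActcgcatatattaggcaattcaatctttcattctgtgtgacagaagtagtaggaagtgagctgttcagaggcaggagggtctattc
CYP26A1: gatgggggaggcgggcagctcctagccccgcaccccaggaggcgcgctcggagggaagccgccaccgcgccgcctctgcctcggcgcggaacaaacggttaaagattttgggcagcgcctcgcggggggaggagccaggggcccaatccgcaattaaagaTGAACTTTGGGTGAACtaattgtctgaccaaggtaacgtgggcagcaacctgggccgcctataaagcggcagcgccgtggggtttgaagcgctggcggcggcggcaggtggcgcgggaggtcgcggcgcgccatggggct
A match was present for 58 of 27305 genes with a promoter in the table (0.212%), for 2 of the 17 measured retinoic acid response genes it lists, and for none of CYP26B1, DHRS3, ELFN1, PRKCH, PTPRH and OSBPL10 in this window. It describes the letters of the window and says nothing of binding in these cells.

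The 8 largest higher calls made with the pairing alone were chosen among those with 1 direction in every pair. DHX9, an RNA helicase, was at 6.73, 5.86 and 5.39 on the untreated arrays and at 7.48, 7.16 and 7.01 at 5 μM (log2 change 1.22, standard error 0.17, adjusted p = 0.0189 from limma). SUPT16H, a subunit of the histone chaperone FACT, was at 9.02, 8.72 and 8.24 and at 9.89, 9.69 and 9.60 (change 1.07, adjusted p = 0.0295). ZFR, an RNA-binding zinc finger protein, was at 7.23, 6.81 and 6.12 and at 7.98, 7.94 and 7.39 (change 1.05, adjusted p = 0.0288). The doses did not overlap in these 3 genes, and untreated array 1 had the highest and untreated array 3 the lowest signal of its group. ESCO1, which acetylates cohesin, changed by 0.69, 0.76 and 1.94 in pairs 1, 2 and 3, and SCYL2, a pseudokinase of clathrin-coated vesicles, by 0.68, 1.18 and 1.58. GAREM1, an adaptor of growth factor signalling to ERK, changed by 0.50, 1.38 and 1.66. GREM1, an antagonist of bone morphogenetic proteins, changed by 0.22, 1.65 and 1.67 and PAPPA, a protease that cleaves binding proteins of insulin-like growth factors, by 0.33, 1.09 and 1.58. Pair 1 had the smallest change in all 8 genes, and for PAPPA untreated array 1 overlapped the 5 μM arrays.

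**Figure D2:**
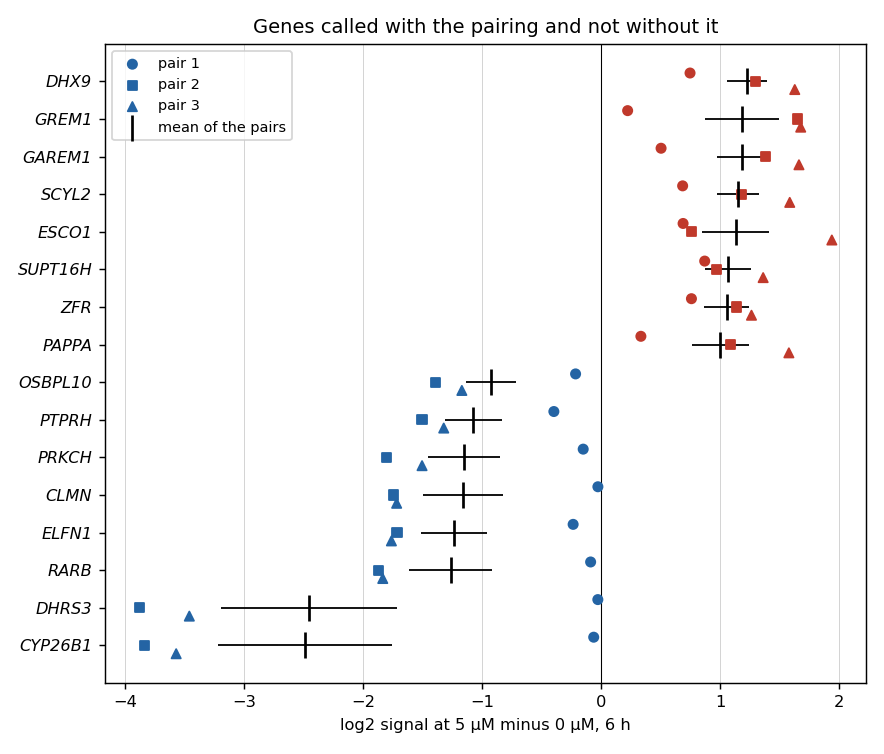
Points give the paired log2 changes (5 μM minus 0 μM at 6 h) of the 16 genes with the largest changes called with the pairing and not without it, 1 marker per pair, with the mean as a bar and its standard error as a line. The choice required 1 sign in all pairs. The pairs of the genes called higher lie between 0.22 and 1.94, and those of the genes called lower lie between -0.40 and -0.03 in pair 1 and between -3.88 and -1.17 in pairs 2 and 3.

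Few calls were large in all pairs. A size of at least 0.5 in each pair was reached by 95 probe sets called higher and by 8 called lower. Chosen after their values were seen, 19 probe sets that were higher by at least 0.7 in each pair covered 14 genes with 1 symbol. They included SMCHD1, a silencing factor of the SMC family, with paired changes of 0.86, 1.27 and 1.22, NUCKS1, a chromatin-associated protein, with 0.77, 0.78 and 0.96, UBN2, a subunit of a histone chaperone complex, with 0.82, 1.05 and 0.86, and ATRX, a chromatin remodeller, with 1.05, 0.78 and 0.98. SMAD5, a transducer of bone morphogenetic protein signals, had 0.71, 1.06 and 0.70. The 8 lower probe sets held 5 genes with 1 symbol, COX3, ERI1, MALAT1, PRKD2 and RASL10B, and 3 probe sets without a listed symbol. ERI1, a 3′ to 5′ exonuclease of histone and small RNAs, was at 7.72, 8.44 and 8.05 on the untreated arrays and at 7.05, 7.35 and 7.33 at 5 μM. Its second probe set was called lower too, and the 2 changes lay between -0.82 and -0.78.

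Direction went with signal in the deposited scaling. In the 8310 dimmest probe sets, with means of 5.32 to 6.88, 930 were higher and 577 lower, so 61.7% of the calls were higher. The middle 8310 had 612 higher and 883 lower. In the 8310 brightest, with means of 8.66 to 14.3, 317 were higher and 1017 lower, and 23.8% of the calls were higher. This gradient depended on the scaling. After quantile normalization of the kept probe sets 41.9% of the calls were higher in the dimmest class and 50% in the brightest, while centring each array on its median left 65.9% and 29.9%. It also depended on single arrays. In the brightest class 63.3% of the calls were higher without 5 μM array 2, 60% without 5 μM array 3, 46.6% without untreated array 2 and 38.2% without untreated array 1, and 42.1% without the block, whereas in the dimmest class these shares lay between 61% and 71.4%. Within genes the contrast was present under both scalings. Of 5695 genes with several kept probe sets, the brightest was called higher in 200 and lower in 692 (22.4% of calls higher), and the other 9491 probe sets were called higher in 1119 and lower in 751 (59.8%). The 2 shares were 39.9% and 59% after quantile normalization and 30.5% and 64.3% after centring. Leaving out 1 array moved them to 44.9% and 78.2% (5 μM array 3), 39.4% and 84.5% (5 μM array 2), 35.6% and 74.1% (untreated array 2) or 37.3% and 67.6% (untreated array 1). Counted by any probe set, 11.4% of the genes were called higher and 16.6% lower. The probe set type _a_at, whose probes bind several transcripts of 1 gene, had 55 higher and 26 lower of 466, against 1001 and 1503 of 14634 for _at.

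**Figure D3:**
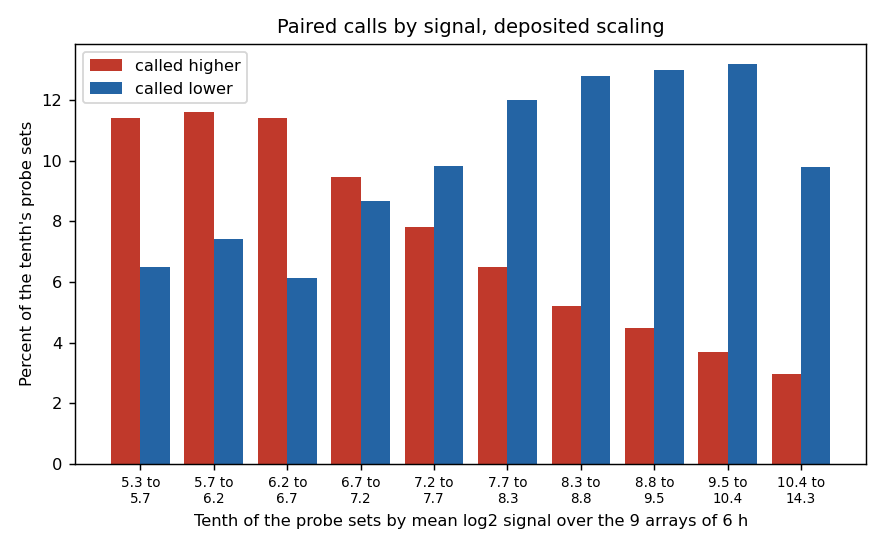
Bars give the percent of kept probe sets called higher (red) and lower (blue) at 5 μM in 10 equal classes of the 24930 probe sets by mean log2 signal, from the dimmest on the left to the brightest on the right. Calls higher fall from 11.4% to 2.97% and calls lower rise from 6.5% to 13.2% in the second brightest class, a gradient that was not present after quantile normalization.

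For 5 of the 8 genes with the largest higher calls the brightest probe set was not higher. At the brightest probe set DHX9 changed by -0.09 (adjusted p = 0.272 from limma), SCYL2 by -0.10 (adjusted p = 0.251) and ZFR by -0.08 (adjusted p = 0.289), none of them called, although a dimmer probe set of each was higher by more than 1. SUPT16H was lower at its brightest probe set, at -0.13 (adjusted p = 0.0971) and higher at its other one, and ESCO1 was lower at its brightest as well. GREM1, GAREM1 and PAPPA did not follow this. The brightest of the 4 probe sets of GAREM1 had 0.46 with an adjusted p of 0.143, and all 4 changes were above 0. The brighter probe set of GREM1 had 1.00 with an adjusted p of 0.109, and of the 5 probe sets of PAPPA 3 were called, all higher, at 0.71, 0.55 and 1.00, although its doses overlapped in each.

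Of the 5695 genes with several probe sets, 3496 had none called, 946 had only higher calls, 1081 only lower calls and 172 had both. In 144 of those 172 genes the probe set called higher was the dimmer one, and after quantile normalization in 91 of 140. The gap between the highest and the lowest called change of a gene had a median of 0.61 on the log2 scale, with a range of 0.34 to 2.04. MALAT1, a nuclear long noncoding RNA, had the largest gap. Of its 12 kept probe sets 7 were higher, by 0.48 to 1.29, 1 was lower and 4 were not called, among them the brightest at -0.09. A probe set of MALAT1 was at 10.14, 10.22 and 10.02 on the untreated arrays and at 11.34, 11.51 and 11.41 at 5 μM (change 1.29 with a standard error of 0.138 and an adjusted p of 0.0128 in limma), and another was at 11.62, 12.14 and 11.76 and at 11.11, 10.95 and 11.23 (change -0.74 with a standard error of 0.2 and an adjusted p of 0.0659). The doses did not overlap in either probe set, and both directions were present in every pair. Among the 6 genes of the largest gaps, SECISBP2L, a relative of a selenoprotein translation factor, was lower at its brighter probe set (-0.46) and higher by 0.86 at the dimmer one. SIKE1, which binds the kinase IKBKE, had -0.51 and 0.80 in the same order, SLC7A14, an amino acid transporter-like protein, -0.40 and 0.96, and ESCO1 -0.14 and 1.13. RAB2A, a GTPase of traffic between the endoplasmic reticulum and the Golgi, had 2 of 6 probe sets higher and 2 lower, from -0.51 to 0.77, and here the brighter called probe set was among the higher ones.

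**Figure D4:**
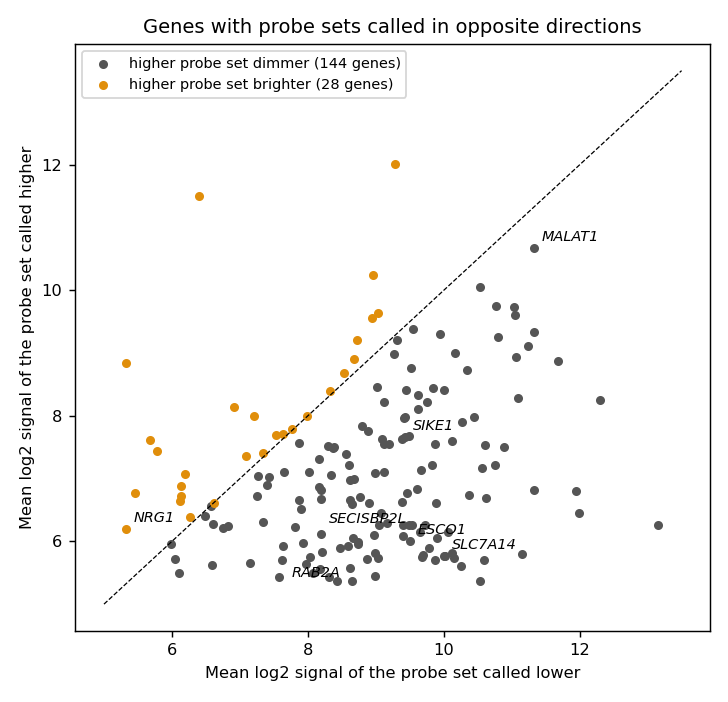
Each point is 1 of the 172 genes with probe sets called in both directions, placed by the mean log2 signal of its lowest-changing called probe set (horizontal) and of its highest-changing called probe set (vertical). Below the dashed line of equal signal lie 144 genes, whose higher probe set is the dimmer one, and above it 28.

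A single direction at every probe set was rarer. All kept probe sets were called higher in 13 genes and lower in 59, and 10 of these 72 genes had at least 3 probe sets. DCLK1, a microtubule-associated kinase of neurons, was lower at all 4 probe sets, with changes of -0.20 to -0.37. HNRNPLL, a regulator of alternative splicing, was lower at 3, with changes of -0.37 to -0.44, and its median changes in pairs 1, 2 and 3 were -0.14, -0.60 and -0.55. CORIN, a membrane protease, was lower at 3 probe sets, with changes of -0.20 to -0.45. KCNMB4, a regulatory subunit of calcium-activated potassium channels, was higher at 3 by 0.23 to 0.27, and its doses overlapped because the untreated array 1 was brighter than the 5 μM arrays 2 and 3. PTPA, an activator of protein phosphatase 2A, and PTCRA, a part of the T cell receptor in thymocytes, were lower at 3 probe sets each, with changes of -0.17 to -0.44 and of -0.20 to -0.40. All 3 probe sets of PTPA and 2 of PTCRA are of the type _x_at, whose probes can bind transcripts of other genes.

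Of the 7 genes that the study followed up, 6 had a call at a dimmer probe set and 2 at the brightest. ENC1, an actin-binding protein of neurons, was higher at the dimmer probe set, with 7.53, 7.31 and 7.25 on the untreated arrays and 7.99, 8.17 and 8.15 at 5 μM (change 0.74, adjusted p = 0.0175 from limma), and at 0.15 (adjusted p = 0.163) at the brighter one. ELF1, a transcription factor of the ETS family, had 0.80 (adjusted p = 0.0128) and, at its brighter probe set, -0.04 (adjusted p = 0.773). PPP1R9A, a scaffold of protein phosphatase 1 at synapses, was higher at its 2 dimmer probe sets by 0.80 and 0.44, and the brightest was not called at 0.20. IGF2BP3, an RNA-binding protein, was higher at 1 of 3 probe sets by 0.84 and NFAT5, a transcription factor of osmotic stress, at 1 of 3 by 0.64, again not at the brightest, which had 0.14 and -0.15. NRG1, a ligand of ERBB receptors, was called both ways, at 0.40 for the probe set with a mean signal of 6.19 and at -0.67 for the one with 5.33. SEMA6D, an axon guidance ligand, was lower at its brightest probe set, at -0.72 (8.65, 9.30 and 9.20 without cocaine and 8.45, 8.37 and 8.17 with it), with the 2 dim ones not called at -0.30 and 0.0038. The study chose these genes on these arrays and then measured them by quantitative PCR, in the array samples and in new experiments. It reported higher levels near 6 h for all of them except SEMA6D, which was lower. GAPDH, at 3 probe sets, and HPRT1 were not called, with changes of -0.01, -0.07, -0.01 and 0.10.

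Gene lists were counted with each gene at its brightest probe set, and several held a larger share of lower calls than the 11.9% of all genes. All 12 called members of 51 chromatin remodellers were lower, and the list's median change was -0.09. SMARCC2 of the SWI/SNF complex was at 9.59, 9.66 and 9.61 without cocaine and at 9.40, 9.35 and 9.28 with it (change -0.28, adjusted p = 0.0258 from limma), BAZ2B, a bromodomain protein, had -0.23 and ACTL6A, an actin-related subunit of several remodellers, -0.29. By any probe set, however, 12 remodellers had a higher and 16 a lower call, so the single direction held at the brightest probe set only. Over all genes the share called higher also rose, from 3.74% at the brightest to 11.4% by any probe set. The share called lower rose from 11.9% to 16.6%. A gain of higher calls by any probe set was thus not particular to a list. Histone and DNA methylation enzymes had 1 higher and 6 lower (9.84%) of 61, below the share of all genes. Among them EHMT2, which methylates histone H3, had -0.21, the demethylase KDM1A -0.22 and KMT2B, a histone methyltransferase, -0.29. Among 44 acetylation enzymes and corepressors 5 were lower (11.4%) and none higher, led by HDAC7 at -0.33. Of 71 Mediator and general transcription genes 2 were higher and 9 lower (12.7%), so both lists were near the share of all genes. SUPT6H, an elongation factor, was lower, at -0.38, TAF2 of TFIID, at -0.34, and MED13L of the Mediator kinase module was higher by 0.41, with another of its 3 probe sets lower, at -0.20.

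Small lower calls were present among sterol and mitotic genes. Of 33 measured genes of sterol and fatty acid synthesis 9 were lower and 1 was higher, with a median change of -0.10. INSIG1, which keeps SREBP transcription factors in the endoplasmic reticulum, was at 8.95, 8.71 and 8.90 without cocaine and at 8.55, 8.14 and 8.62 with it (change -0.42, adjusted p = 0.021 from limma), DHCR7, an enzyme late in cholesterol synthesis, had -0.33 and STARD4, a cholesterol carrier, -0.36. The list's median changes in pairs 1, 2 and 3 were -0.13, -0.12 and -0.03, against -0.05, -0.03 and -0.02 over all genes. Of 64 measured G2/M and mitosis genes 11 were lower and none was higher, and 52 of the 64 changes were below 0. The list's medians in the pairs were -0.15, -0.09 and -0.06. By any probe set 4 mitotic genes had a higher and 14 a lower call. For sterol genes these counts were 5 and 11, and over all genes the shares were 11.4% higher and 16.6% lower. Of the lower mitotic genes, NUSAP1 and MKI67 were called higher at another probe set, by 0.39 and 0.34. Without the block 1 sterol gene and no mitotic gene was lower. KIF23, a kinesin of cytokinesis, was at 8.58, 8.84 and 8.97 and at 8.25, 8.52 and 8.59 (change -0.35, standard error 0.0445, adjusted p = 0.0175). NDC80, a kinetochore protein, had -0.21 and RACGAP1, a partner of KIF23 at the spindle midzone, -0.23. In the pairs KIF23 changed by -0.34, -0.32 and -0.38, so pair 1 lay within the range of the other pairs. Of 69 G1/S and replication genes 6 were lower (8.7%) and 1 was higher, below the share of all genes in both directions.

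The promoter of KIF23 is shown for the letters it shares with other mitotic genes. The window is chr15:69414099-69414398 on the plus strand of GRCh38.p14 (RefSeq), written 5′ to 3′, and its capitals mark TTTGAA, the core of the cell cycle homology element, searched on both strands.
KIF23: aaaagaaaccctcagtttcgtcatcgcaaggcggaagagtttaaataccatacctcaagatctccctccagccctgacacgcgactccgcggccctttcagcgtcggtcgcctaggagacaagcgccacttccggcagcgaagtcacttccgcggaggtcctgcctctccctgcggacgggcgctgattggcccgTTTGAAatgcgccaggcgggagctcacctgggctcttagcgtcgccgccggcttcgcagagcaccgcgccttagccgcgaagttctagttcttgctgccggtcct
This hexamer was present in the promoter of 38 of 54 measured mitotic genes with a promoter in the table (70.4%), of 8 of the 10 that were called lower and of 30 of the 44 not called. Over all 27305 genes the share was 18.2%, and over the 1189 genes called lower at the brightest probe set 13.9%, close to the 13.4% of all 9795 measured genes in the table.

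For the lists that follow, the shares of all genes were 11.9% lower and 3.74% higher, and by any probe set 16.6% and 11.4%. Microtubule proteins and motors had a median change of -0.06, and 14 of 76 were lower (18.4%) and 4 higher. KIF1C, a kinesin of vesicle transport, had -0.33 and KIF13B -0.27, and MAP1B, a microtubule-binding protein of growing axons, was higher by 0.23. Actin regulators had 9 lower (13.2%) and 2 higher of 68, near the share of all genes, and 6 in each direction after quantile normalization. The kinase ROCK1 had -0.32, drebrin (DBN1) -0.20 and the tropomyosin TPM4 0.46. By any probe set 19 actin regulators had a higher and 12 a lower call, so that the balance turned. Vesicle exocytosis genes had 8 lower (13.1%) and 2 higher of 61, near the share of all genes, and quantile normalization made this even at 4 and 4. Axon guidance genes had 9 lower and 5 higher of 57, and by any probe set 11 had a higher and 11 a lower call. CPLX1, a regulator of vesicle fusion, was lower, at -0.28, SEMA4B at -0.38 and EPHB3 at -0.34, and SEMA5B was higher by 0.38. Of 18 catecholamine genes 4 were lower and none higher, although the list's median change was 0.01, 8 of the 18 changes were below 0, and without replicate 1 the list had 3 higher and 1 lower. The calls included ADRA2A, an adrenergic receptor, at -0.16, DBH, which makes noradrenaline, at -0.21 and PCBD1 at -0.16.

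Signalling genes linked to cocaine were called in both directions. At the brightest probe set 11.9% of all genes were lower and 3.74% higher, and by any probe set 16.6% and 11.4%. Of 19 measured immediate early genes 3 were higher (15.8%) and none lower, with a median change of 0.07. The list's medians were -0.01, 0.02 and 0.17 in pairs 1, 2 and 3, and 8 of the 19 changes were below 0. CCN1, a secreted matrix protein, was at 9.20, 9.21 and 8.22 on the untreated arrays and at 9.40, 9.73 and 9.28 at 5 μM (change 0.59, adjusted p = 0.0562 from limma), MYC at 8.11, 7.22 and 7.47 and at 8.22, 7.88 and 8.01 (change 0.44) and CCN2, another matrix protein, changed by 0.25, 0.34 and 1.24 in the 3 pairs (mean 0.61). The doses overlapped in MYC and CCN2 and not in CCN1, and none of the 3 genes was called without the block. The RAS to ERK cascade had 7 lower (21.2%) and none higher of 33. RPS6KA1, a kinase that ERK activates, was lower in each pair (-0.37, -0.28 and -0.44), with the exchange factor SOS2 at -0.25 and MKNK2 at -0.22. By any probe set 5 of these genes had a higher call and 9 a lower one, and SOS2 was called higher at 2 of its 4 probe sets, by up to 0.94. Of 22 ERK feedback genes 4 were lower and 2 higher, and the phosphatases DUSP6 and DUSP4 were called in opposite directions at -0.51 and 0.24. By any probe set 8 of the ERK feedback genes had a higher and 5 a lower call. DUSP6 changed by -0.18, -0.72 and -0.61 in the 3 pairs. Of 40 cAMP and CREB genes 5 were higher (12.5%) and 4 lower (10%), the latter below the share of all genes. CAMKK2, a calcium-dependent kinase, was at 9.01, 8.95 and 9.09 and at 9.45, 9.37 and 9.44 (change 0.40, adjusted p = 0.0128), AKAP13 was higher by 0.41, and ATF2, which binds cAMP response elements, was lower, at -0.45. The receptors PDGFRB and PDGFRA were lower, at -0.41 and -0.41, and FGFR1 was higher by 0.29, the 3 calls among 18 receptor tyrosine kinases. Their lower share, 11.1%, was near that of all genes. FOXO4 and FOXO3 were lower, at -0.56 and -0.38, and GSK3A was higher by 0.19, of 25 genes of the PI3K pathway. The list's 8% lower was below the share of all genes, and its 4% higher was near it. Notch, Wnt and Hippo genes had 9 lower and 3 higher of 41, with LATS1 at -0.29, APC at -0.34 and TCF7L1 at 0.34.

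RNA and protein lists were called in both directions. The shares of all genes were 11.9% lower and 3.74% higher, and by any probe set 16.6% and 11.4%. Of 55 SR proteins and hnRNPs 4 were higher and 1 lower. SRRM2, a scaffold of nuclear speckles, was at 9.01, 9.06 and 9.22 without cocaine and at 9.79, 9.56 and 9.73 with it (change 0.60, adjusted p = 0.0285 from limma), and the splicing regulator QKI was higher by 0.30. The spliceosome list had 1 higher and 6 lower (9.38%) of 64, led by the splicing kinase CLK1 at -0.35, CLK3 at -0.19 and DHX38 at -0.23. By any probe set 13 of its genes had a higher and 7 a lower call, so that the balance turned. TPR, of the nuclear basket, was higher by 0.43 and NXT1 by 0.17, in a list with 2 higher and 2 lower of 58. The importin KPNA6 was lower at its brightest probe set, at -0.30, and was called lower at 2 and higher at 1 of 4 probe sets, the last by 0.31. Among 11 long noncoding RNAs and snoRNA hosts TUG1 (-0.34) and MEG3 (-0.26) were lower and no member was higher. Endoplasmic reticulum chaperones had 5 higher and 1 lower of 43, with HSP90B1 at 10.18, 10.02 and 10.09 without cocaine and at 10.74, 10.60 and 10.49 with it (change 0.51, adjusted p = 0.0128), and DNAJC1 higher by 0.30. SEC63 was lower at its brightest probe set, at -0.18, and was called lower at 2 and higher at 1 of 4 probe sets, the last by 0.24. Without replicate 1 the list had 5 higher and 6 lower. Both probe sets of HSP90B1 were higher.

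Mitochondrial transcripts were lower at 4 of 7 measured genes, with a median change of -0.18. COX3 was at 9.14, 9.35 and 9.42 on the untreated arrays and at 8.46, 8.22 and 8.46 at 5 μM (change -0.92 with a standard error of 0.0859 and an adjusted p of 0.0127 in limma). The doses did not overlap, and this probe set is of the type _x_at. ND2 was at 13.36, 13.55 and 13.44 and at 13.26, 13.18 and 13.17 (change -0.25, adjusted p = 0.0471) and ATP6 had -0.18. The fourth was ND4 at -0.19. The nuclear-encoded subunits of the respiratory chain had 5 lower and none higher of 71, below the share of all genes, with UQCRC1 at -0.18, ATP5F1E at -0.18 and NDUFV2 at -0.16. Other lists were near or below the share of all genes. Translation factors had 7 lower and 1 higher of 53, with EIF4B at -0.30, EIF1B at -0.18 and PAIP2 at -0.19. Mitochondrial ribosomal proteins had 4 lower and 2 higher of 76, cytosolic ribosomal proteins 3 lower and 1 higher of 52, proteasome subunits 2 lower and 1 higher of 39, aminoacyl-tRNA synthetases 3 lower and 1 higher of 33, cytosolic and mitochondrial heat shock proteins 3 lower and 1 higher of 52, and glycolysis and hypoxia genes 2 lower and none higher of 39. In all 6 of these lists the balance was even or turned after quantile normalization. The ATF4 list had 3 lower of 28, SLC1A4, VLDLR and DDIT4, and DDIT4 changed by 0.01, -0.66 and -0.44 in the 3 pairs.

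Cell state markers split between genes. VIM, the intermediate filament of mesenchymal cells, was at 12.38, 11.66 and 11.50 on the untreated arrays and at 12.49, 12.49 and 12.49 at 5 μM (change 0.64, adjusted p = 0.0565 from limma), so the untreated arrays 2 and 3 were low and the other 4 arrays alike. WWTR1 was higher by 0.30 and COL6A3 by 0.29. Of 31 measured mesenchymal markers 4 were higher (12.9%) and 2 lower (6.45%), against 3.74% and 11.9% of all genes. Of 21 measured adrenergic factors 2 were higher and 4 lower (3 and 3 after quantile normalization), with TFAP2B at 0.25, TLX2 at -0.33 and GATA2 at -0.16. PHOX2A was at 11.33, 11.78 and 11.72 on the untreated arrays and at 11.29, 10.97 and 11.03 at 5 μM, again with the difference in pairs 2 and 3. Neither of the 2 glial markers above the filter was called.

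**Figure D5:**
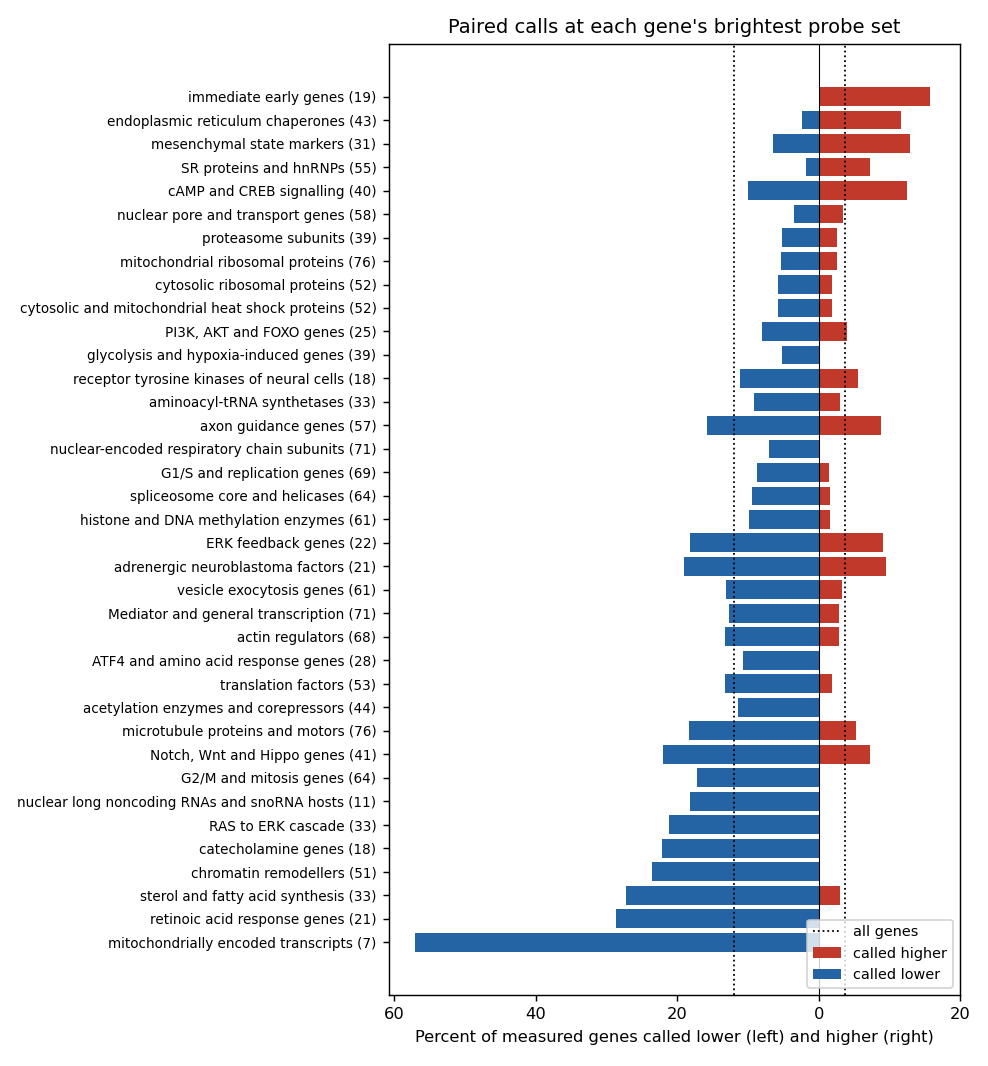
Bars give the percent of measured genes in each list called lower (to the left) and higher (to the right) at 5 μM at the brightest probe set, with the number of measured genes in brackets, and dotted lines mark the shares over all 11943 genes, 11.9% lower and 3.74% higher. Mitochondrially encoded transcripts, retinoic acid response genes, sterol synthesis and chromatin remodellers reach farthest to the left, and immediate early genes, mesenchymal markers and cAMP genes farthest to the right.

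The counts under other settings follow for 7 of the lists with a balance towards lower calls. After quantile normalization the lower and higher members were 7 and 0 for retinoic acid response genes, 8 and 2 for chromatin remodellers, 8 and 1 for sterol genes, 9 and 0 for mitotic genes, 10 and 4 for microtubule proteins, 5 and 0 for the RAS to ERK cascade, and 3 and 0 for mitochondrial transcripts. Without replicate 1 the lower and higher members were 13 and 1, 13 and 1, 11 and 2, 8 and 0, 18 and 5, 4 and 0, and 5 and 0 for the same 7 lists in that order, and each kept more lower than higher calls. Few lower calls were left under 2 other settings. Without the block the lower members were 0, 1, 1, 0, 3, 1 and 1 in that order. With the block on only the 6 arrays of 0 and 5 μM they were 1, 2, 4, 2, 3, 2 and 1. Without replicate 1 the balance turned in other lists, to 10 higher and 9 lower for actin regulators, 11 and 10 for axon guidance genes, 4 and 3 for ERK feedback genes, 6 and 3 for mitochondrial ribosomal proteins, 4 and 2 for aminoacyl-tRNA synthetases and 4 and 2 for heat shock proteins, and it was even at 6 and 6 for G1/S genes. Immediate early genes had 4 higher and none lower after quantile normalization.

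The paired fit called 2894 probe sets for 1 μM against 0 μM at 6 h, where it called 4336 for 5 μM. The bioD measure given above set the untreated arrays apart from both doses, and its part in either count was not tested. Values at 1 μM, which share the untreated arrays with those at 5 μM, are given side by side for the genes above. CYP26B1 had -2.49 at both doses, and DHRS3 had -2.39 at 1 μM and -2.46 at 5 μM. RARB had -1.38 and -1.27. Of the 8 higher genes, DHX9 had 0.36 at 1 μM and 1.22 at 5 μM, SUPT16H 0.30 and 1.07, SCYL2 0.15 and 1.15, ESCO1 0.12 and 1.13, and ZFR 0.03 and 1.05. GREM1 had 0.98 and 1.18, GAREM1 0.83 and 1.18, and PAPPA 0.77 and 1.00, so the values of these 3 genes at the 2 doses lay closer together. MALAT1 had, at the probe set with its largest change, 0.34 and 1.29. The differences between these doses were not tested.

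At 24 h the paired fit called 2 of 27304 probe sets (0.00732%), with 4000 at an unadjusted p under 0.05, and the fit without the block called 1. Both were probe sets of SCAMP1, a membrane protein of secretory vesicles, with changes of -0.73 and -0.58 (adjusted p = 0.0543 each from limma). At 6 h the first of them was higher by 0.71 (adjusted p = 0.033) and the second had 0.23 (adjusted p = 0.218), and the brightest of the 6 probe sets of SCAMP1 was lower, at -0.15. The paired change differed between 6 and 24 h for 3678 of 24805 probe sets kept at both times (14.8%), 1527 with a change at 6 h above that at 24 h and 2151 below. Of 4313 probe sets called at 6 h and kept at both times, 2171 differed. The 4313, which were chosen by their change at 6 h, had a median size of 0.27 at 6 h and 0.0847 at 24 h, and all 24805 had 0.0956 and 0.0693. The authors normalized the arrays of each time apart, so only changes within a time were set against each other. The genes of the retinoic acid group did not pass this test, and their changes at 24 h were -1.01 for CYP26B1, -0.80 for DHRS3 and -0.37 for RARB.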

How the data were processed

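The deposited values are log2 signals that the authors computed by RMA, which corrects background, normalizes and summarizes probes by median polish. They ran it for each time apart, and the table holds all probe sets without a filter. The dose and replicate number came from the titles. Changes were fitted with limma 3.58.1 in R 4.3.3 (lmFit and eBayes) on the 9 arrays of 6 h, with dose and replicate number as terms, with the Benjamini-Hochberg adjustment of p over all 24930 kept probe sets. The numbers were taken to pair the arrays because same-numbered arrays of different doses deviated together from their group means (r between 0.371 and 0.764 in 9 pairs, against -0.625 to 0.0842 in 18 pairs of different numbers). Changes at 6 and 24 h were set against each other over all 18 arrays, with a block within each time. The paired fit was also run on simulated arrays with 50 changed probe sets of each size. It recovered 2% of changes of 0.2 on the log2 scale, 42% of 0.3, 96% of 0.5 and 100% of 0.8. It called 19 probe sets without a change. The simulated errors were independent and few probe sets were changed, so these shares need not hold for the calls here. Gene names came from the array's annotation, with symbols updated through RefSeq of GRCh38.p14, which matched 41043 of 41097 probe sets with 1 symbol.

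The members and gene lists were chosen with earlier results of these data known. Named genes are the 8 largest changes in each direction that the pairing alone called in 1 direction in every pair, the 6 largest gaps within a gene, the 6 genes of 3 or more probe sets with the largest changes in 1 direction, up to 3 called genes in each list with the smallest p, the genes that the study followed up, and CYP26A1, CYP26B1, DHRS3, RARB, MALAT1, TH, GAPDH and HPRT1. Genes given as large in every pair, SCAMP1, CRABP2, PHOX2A, ND4, VLDLR, SLC1A4 and the brighter probe sets of named genes were chosen after their values were seen. Promoters were searched with Python 3.11.15 and pandas 2.3.3, and plots drawn with matplotlib 3.10.9. Alternatives changed the block, arrays, signal filter, probe set types, scaling, weights and threshold. Some genes of these arrays are not reported here.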

Additional observations from a re-analysis of the deposited data

Results flagged for a closer look

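The paired change differed between 6 and 24 h for 3678 probe sets, by a test of the difference itself in limma at an adjusted p under 0.10. Among these are the following of the largest calls made with the pairing alone and of the genes that the study followed up. Both sets were chosen for their change at 6 h on these arrays. That change is part of the difference tested, so a pass rests in part on the choice. The values are the change at 6 h minus the change at 24 h on the log2 scale. Among the genes called higher, the difference was 1.38 for DHX9, 1.11 for GAREM1, 0.86 for SCYL2, 1.56 for ESCO1, 1.42 for SUPT16H, 1.32 for ZFR and 0.92 for PAPPA. Among those called lower it was -1.12 for ELFN1, -1.2 for CLMN and -1.01 for PTPRH. GREM1, with 0.99, did not pass (adjusted p = 0.212 from limma), and neither did the retinoic acid genes given above. Of the genes that the study followed up, ELF1 had 1.19 at the dimmer probe set and ENC1 had 0.69. Both a probe set of IGF2BP3 that was not called at 6 h and the called one passed, with 0.2 and 0.96. PPP1R9A had 0.85 and 0.4 at its dimmer probe sets, and SEMA6D had -0.75 at the brightest. Other named genes passed as well. MALAT1 had 1.94 at the probe set with its largest change, while its lower probe set, with -0.07, did not pass. SIKE1 had 1.18 at its higher and -0.53 at its lower probe set, SCAMP1 had 1.44 at a probe set and DBH -0.53. What lies behind these differences was not tested.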

How the results depend on the processing

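The number of calls depended strongly on the fit, and the cause was not tested beyond what each setting changes by construction. Without the replicate block 362 probe sets were higher and 297 lower, 3 genes were called both ways and 3 one way at every probe set, 1 probe set was called at 24 h, and 967 differed between the times. With the block on only the 6 arrays of 0 and 5 μM, 805 were higher and 586 lower, 1280 were called with the pairing alone, 26 genes went both ways and 4 one way. At an adjusted p under 0.05 these counts were 891, 1005, 1781, 43 and 13, with 0 at 24 h and 2105 between the times. Without _x_at and _s_at probe sets they were 1011, 1441, 2311, 76 and 42. With 1 probe set per gene 593 were higher and 2263 were called with the pairing alone. Without the signal filter 94 genes went both ways and 21 one way, 0 were called at 24 h and 2187 differed between the times. Genes called both ways and one way numbered 275 and 136 with an intensity trend and 317 and 249 with array weights, under which 3147 probe sets were higher. All 18 arrays in 1 fit gave 134 genes one way, and a filter of log2(80) gave 123 calls at 24 h.

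When a replicate number or a single array was left out, calls ranged from 0 to 3746 higher and from 0 to 3417 lower, those of the pairing alone from 0 to 4538, genes both ways from 0 to 338 and one way from 0 to 346. The lowest values came without replicate 2 and the highest without untreated array 1 or replicate 1. Of 79 named changes 65 were called, and 43 of these lost their call without the block, all 65 without replicate 2, 59 without replicate 3 and 3 without replicate 1. Each called change kept its sign in every setting run. Changes near 0 that were not called turned sign. ELF1 at its brighter probe set, -0.04 in the fit reported, had 0.013 with array weights and ranged from -0.109 to 0.0649 over the fits without a replicate or an array. SEMA6D at a dim probe set had -8.5e-05 with array weights and -0.043 after quantile normalization, and ranged from -0.0461 to 0.0929. The 2 probe sets of GAPDH that turned had 0.0106 and 0.0208 after quantile normalization and ranged from -0.0333 to 0.0222 and from -0.0325 to 0.0186. The first of them had 0.0041 with array weights and 0.0026 after centring.

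Results on shares of higher calls and on genes at the brightest probe set under other settings were added after seeing the data. Centring and quantile normalization of the arrays moved no count of calls over all probe sets or genes by over 1.5 times, apart from the genes called both ways whose higher probe set was the dimmer one (91 after quantile normalization).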
